A study of Homo sapiens with 4 samples.

Results

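The miR-30 and miR-26 families are 2 groups of vertebrate miRNAs, and their 5p arms, the mature strands cut from the 5′ side of each hairpin, were followed here in extracellular vesicles (EVs) released by PC3 cells, a prostate cancer (PCa) line derived from a bone metastasis. The members were selected by name as the 5p arms of miR-30a to miR-30e and of miR-26a and miR-26b. All 7 were present among the 2588 mature miRNA names of the small RNA count table. Each of the 2 small RNA libraries and the 2 stranded total RNA libraries came from EVs of untreated PC3 cells, with no other cell type, treatment or time. The study's methods give 2 biological replicates per assay, but the titles of both total RNA samples carry the same code (EX1) while their descriptions carry different ones, so the spread between them may be technical. The cells were cultured in DMEM with fetal bovine serum and antibiotics, and the vesicles were collected in medium with exosome-free serum and isolated with the exoEasy kit and qEV size exclusion columns. The vesicle preparations therefore represent a single cell line, and RNA carried by serum cannot be told apart from RNA of PC3 cells where the mature sequences are shared between species. The 2 small RNA count columns have identical headers and no replicate number, and they are named here by position as first and second library. Where a pair of small RNA values is joined by "and", the first library precedes the second, and pairs of total RNA values are from replicates 1 and 2.

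miRNAs are short RNAs that guide Argonaute proteins to mRNAs, chiefly through pairing of the seed, bases 2 to 8 of the mature strand, and thereby lower translation and stability of the mRNA. Members of a family share the seed and can therefore act on overlapping mRNAs. The miR-30 family is known for repression of SNAI1, a driver of epithelial to mesenchymal transition, and of RUNX2 and SMAD1, which promote osteoblast differentiation. The miR-26 family is known for repression of EZH2, the histone methyltransferase of Polycomb complex PRC2, and of SMAD1, and its genes lie within the CTDSP phosphatase genes. Bone cells were the recipients of the vesicles in this study, so both families have known targets in that setting.

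The seed defines the families, and among the members shown only the bases after it distinguish names within a family. The mature sequences are therefore shown for the members that RefSeq lists on GRCh38.p14 in the table used, 5 of the 7, with the seed in capitals.
hsa-miR-30a-5p: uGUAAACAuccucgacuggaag
hsa-miR-30c-5p: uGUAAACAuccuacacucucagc
hsa-miR-30e-5p: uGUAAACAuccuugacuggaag
hsa-miR-26a-5p: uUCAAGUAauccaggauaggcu
hsa-miR-26b-5p: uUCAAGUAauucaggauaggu
The other members are hsa-miR-30b-5p and hsa-miR-30d-5p. With positions counted from 1 at the 5′ end, miR-30a-5p and miR-30e-5p differed at 1 base of 22, C13U. miR-26a-5p and miR-26b-5p differed at 2 of the 21 bases they share, C11U and C21U, and miR-26a-5p is 1 base longer. miR-30c-5p differed from miR-30a-5p at 5 bases of 22. The number of mismatches allowed in the mapping is not given in the sources used here, so the split of reads between names that differ at 1 or 2 bases is uncertain. Of the other mature miRNAs in the sequence table, miR-1297 and miR-4465 have the seed of miR-26, and no read was counted on either of them in either library.

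The hairpins lie at 9 places on GRCh38. MIR30E (chr1:40754355-40754446, plus strand) and MIR30C1 (chr1:40757284-40757372, plus strand) lie 2837 bases apart in introns of NFYC, which encodes a subunit of the NF-Y transcription factor. MIR30A (chr6:71403551-71403621, minus strand) lies in an intron of the lncRNA gene LINC00472, and MIR30C2 (chr6:71376960-71377031, minus strand) overlaps an exon of it, 26519 bases away. MIR30B and MIR30D lie 4268 bases apart on chromosome 8 within an intron of a lncRNA gene. MIR26A1 (chr3:37969404-37969480, plus strand), MIR26A2 (chr12:57824609-57824692, minus strand) and MIR26B (chr2:218402646-218402722, plus strand) lie in introns of CTDSPL, CTDSP2 and CTDSP1, which encode small C-terminal domain phosphatases. miR-30c-5p and miR-26a-5p can each come from 2 hairpins with the same mature sequence, so their counts are sums over both genes.

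The small RNA libraries held 154185 and 113185 miRNA counts, so 1 read equals 6.49 and 8.84 CPM, counts scaled to a library total of 1000000. A CPM value is a share of the miRNA counts, so it shows neither the number of vesicles nor the RNA per vesicle. It also changes when the counts of other names change. Much of the total, 62.9 and 69.1%, lay on 5 abundant names, which are miR-1246, miR-3135b, miR-3182, miR-4448 and miR-7641. These 5 names are a fixed list, not all names above a set count, so results without them hold for this choice only. In the total RNA, the epithelial keratin KRT8 had 966 and 1088 reads and VIM, an intermediate filament of mesenchymal cells that PC3 also expresses, 130 and 87. The prostate luminal genes KLK3 and TMPRSS2, known to be low in PC3, had 0 reads, as did PTPRC, ALB and HBB of blood and liver. The vesicle marker CD81 had 18 and 16 reads, CD63 had 5 and 29, and CD9 had 0. The epithelial gene EPCAM had 2 and 26 reads. COL1A1 had 35 and 1 reads and COL1A2 1 and 12. Among 7 miRNAs typical of blood and liver, miR-122-5p had 39 and 26 reads, miR-486-5p 6 and 7, and miR-451a, miR-142-3p, miR-142-5p, miR-223-3p and miR-144-3p had 0. The part of serum RNA in the counts of the members was not tested.

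Reads of all 7 members were present in each small RNA library, against 14.9% of all names in the table. With at least 10 reads in both there were 6 of the 7, against 5.56% of all names. The 5 miR-30 members together took 2085 and 1214 reads. These were 1.35% (95% Wilson interval 1.30 to 1.41%) and 1.07% (1.01 to 1.13%) of the miRNA counts, with a mean of 1.21% ± 0.198 (SD, n = 2). The 2 miR-26 members took 931 reads, 0.604% (0.566 to 0.644%), and 371 reads, 0.328% (0.296 to 0.363%), a mean of 0.466% ± 0.195 (SD, n = 2). The summed miR-30 share was above the summed miR-26 share in each library. Reads copied by PCR do not stand for separate molecules, so the intervals and the floor of 3 reads account for counting error and nothing else. With the 5 abundant names left out of the total, the mean shares were 3.56% for miR-30 and 1.34% for miR-26.

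Each family was dominated by 1 member. miR-30d-5p had 1804 and 1102 reads, or 11700 and 9736 CPM, with a mean of 10718 CPM ± 1389 (SD, n = 2). It ranked 12 and 13 among all miRNA names in the first and second library and 11 by mean CPM, and it held 86.5% of the miR-30 reads (95% exact interval 85.0 to 88.0%) and 90.8% (89.0 to 92.3%). miR-26a-5p had 791 and 316 reads, or 5130 and 2792 CPM, with a mean of 3961 CPM ± 1653 (SD, n = 2), and ranked 22 and 24. It held 85.0% (82.5 to 87.2%) and 85.2% (81.1 to 88.6%) of the miR-26 reads. In the second library the interval of miR-30d-5p lay above that of miR-26a-5p, and in the first they overlapped.

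The other members were lower by several-fold to more than 100-fold. miR-30c-5p had 169 and 64 reads, 1096 and 565 CPM. miR-26b-5p had 140 and 55 reads, 908 and 486 CPM. Both were higher in the first library, and they were close to each other in each. miR-30a-5p had 68 and 37 reads, 441 and 327 CPM. miR-30e-5p had 35 and 10 reads, 227 and 88.4 CPM. miR-30b-5p was the lowest member, with 9 reads and 1 read, or 58.4 and 8.84 CPM. Its second value lies below the floor of 26.5 CPM that 3 reads set in that library.

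**Figure D1:**
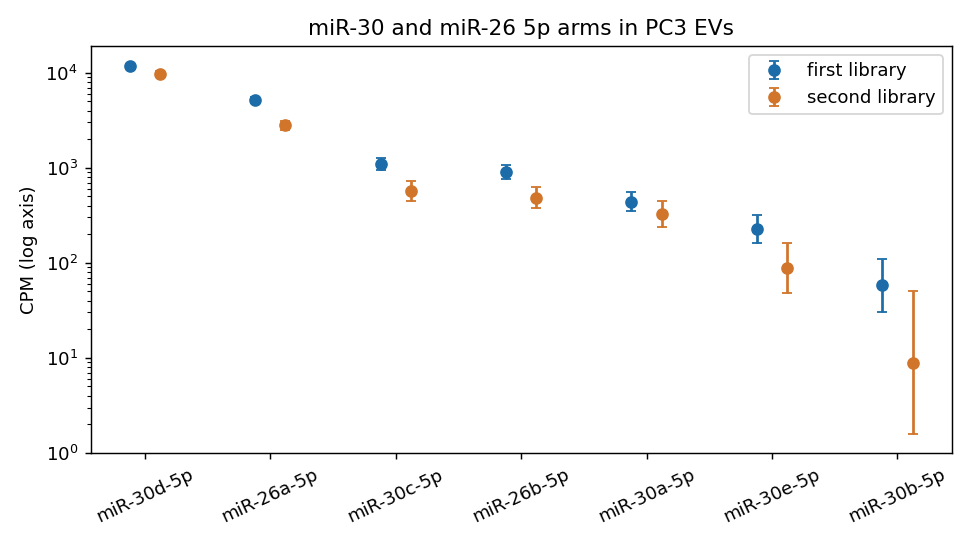
Level of each member in CPM (log axis) in the first and second small RNA library, ordered by mean CPM; points are library values and bars 95% Wilson intervals, which cover counting error only. miR-30d-5p lies highest, at 11700 and 9736 CPM, miR-30b-5p lies lowest, at 58.4 and 8.84 CPM, and the point of the first library lies above that of the second for each member with library totals, which for miR-30d-5p does not hold without the 5 abundant names.

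The order of the members by level was the same in both libraries: miR-30d, miR-26a, miR-30c, miR-26b, miR-30a, miR-30e and miR-30b. Of the 6 pairs of neighbours in this order, 4 had a ratio with a 95% exact interval above 1 in both libraries. miR-30d-5p was 2.28 times miR-26a-5p (2.10 to 2.48) and 3.49 times (3.07 to 3.96). miR-26a-5p was 4.68 times miR-30c-5p (3.96 to 5.56) and 4.94 times (3.76 to 6.57). These gaps separate the leading pair from the rest. miR-30c-5p and miR-26b-5p could not be ordered at this depth, with ratios of 1.21 (0.959 to 1.52) and 1.16 (0.799 to 1.70). miR-26b-5p was 2.06 times miR-30a-5p (1.53 to 2.79) in the first library, but the interval of the second, 1.49 (0.962 to 2.32), held 1. At the lower end, miR-30a-5p was 1.94 times miR-30e-5p (1.27 to 3.01) and 3.70 times (1.80 to 8.34), although these 2 names differ at a single base. miR-30e-5p was 3.89 times miR-30b-5p (1.83 to 9.20) and 10.0 times (1.42 to 434). The latter ratio rests on 1 read of miR-30b-5p, below the floor of 3 reads, so the place of this member in the second library is weakly held.

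Hairpins that lie close together on the genome did not have equal counts. miR-30d-5p had 200 times the reads of miR-30b-5p (95% exact interval 105 to 439) and 1102 times (197 to 43566), and the latter ratio rests on 1 read of miR-30b-5p. miR-30c-5p had 4.83 times the reads of miR-30e-5p (3.34 to 7.16) and 6.40 times (3.26 to 14.0), although its second hairpin on chromosome 6 may add to this. It had 2.49 times (1.86 to 3.34) and 1.73 times (1.14 to 2.67) the reads of miR-30a-5p, its neighbour there. Different miRNAs are captured and amplified with different efficiency in small RNA libraries, so a ratio between names is one of reads, not of molecules.

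The ratio of miR-26a-5p to miR-26b-5p was 5.65 (4.72 to 6.81) and 5.75 (4.30 to 7.80), and the second ratio was 1.02 times the first (95% interval of the odds ratio 0.718 to 1.45). The balance between the families was described in the same way. There were 2.24 (2.07 to 2.42) and 3.27 (2.91 to 3.69) miR-30 reads per miR-26 read, so the second ratio was 1.46 times the first (1.27 to 1.69). Within the miR-30 family, miR-30d-5p had 6.42 times the reads of its 4 relatives together (5.66 to 7.31) and 9.84 times (8.09 to 12.1), and the second ratio was 1.53 times the first (1.21 to 1.95). Ratios within a library do not depend on its total. The intervals in this paragraph cover counting error only, not the spread between replicates.

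Whether the libraries differed for a member by more than counting error was examined with an exact two-sided binomial test for each of 208 miRNAs whose summed count reached 10. This test compares the 2 libraries, not conditions. Of the members, 5 of 7 passed at an adjusted p under 0.05, each lower in the second library, beside 27.4% of all miRNAs tested in either direction and 23.6% lower in the second. The test resolves smaller differences for names with more reads. The members and the other miRNAs were not matched by count, here or in the settings below, so these shares are not a like comparison. miR-26a-5p was lower in the second library by a log2 ratio of -0.88 (95% exact interval -1.07 to -0.69, adjusted exact binomial p = 8.91e-20). miR-26b-5p had nearly the same log2 ratio, -0.90 (-1.38 to -0.44, adjusted exact binomial p = 0.000404), as did miR-30c-5p with -0.95 (-1.39 to -0.53, adjusted exact binomial p = 2.50e-05). These 3 members also passed with TMM scaling, with size factors from DESeq2 and without the 5 abundant names in the total.

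For miR-30d-5p the log2 ratio was -0.27 (95% exact interval -0.37 to -0.16, adjusted exact binomial p = 1.20e-05), but it depended on the total used. It was -0.09 with TMM scaling (adjusted exact binomial p = 0.238) and 0.00067 without the 5 abundant names. miR-30e-5p had a log2 ratio of -1.36 (-2.54 to -0.32, adjusted exact binomial p = 0.0264) and did not pass with TMM scaling (adjusted exact binomial p = 0.0864). miR-30a-5p, with a log2 ratio of -0.43 (-1.05 to 0.17, adjusted exact binomial p = 0.342), and miR-30b-5p, with -2.72 (-8.18 to 0.13, adjusted exact binomial p = 0.142), did not pass. The median log2 ratio was -0.90 over the 7 members and -0.34 over all 208 miRNAs. With TMM scaling these medians were -0.73 and -0.17, and 3 members were called lower beside 13.9% of the miRNAs tested. Calls lower in the second library were 49 of 57 with library totals and 29 of 43 with TMM scaling.

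Counting error is not the whole spread between biological replicates. With a common dispersion estimated by edgeR from both libraries as 1 group, equal to a coefficient of variation of 27.1%, no member and none of the 208 miRNAs (0.0%) differed between the libraries in edgeR's exact test, and 4 miRNAs, none of them a member, had an unadjusted exact p under 0.05. The adjusted exact p of the 5 members above was then from 0.858 to 1.0. The dispersion was estimated from the same 2 libraries that it was used to compare, so any difference between them that many miRNAs share widens it.

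**Figure D2:**
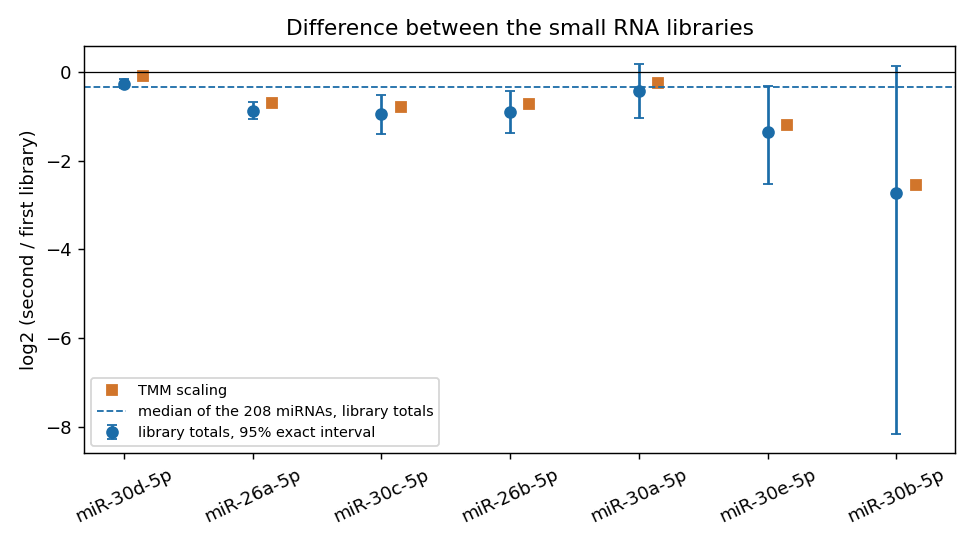
Log2 ratio of the second over the first small RNA library for each member; circles use library totals with 95% exact intervals, squares use TMM scaling, and the dashed line is the median of the 208 miRNAs tested. miR-26a-5p, miR-30c-5p and miR-26b-5p lie between -0.88 and -0.95 with library totals, and miR-30d-5p lies at -0.27, close to the median of -0.34.

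**Figure D3:**
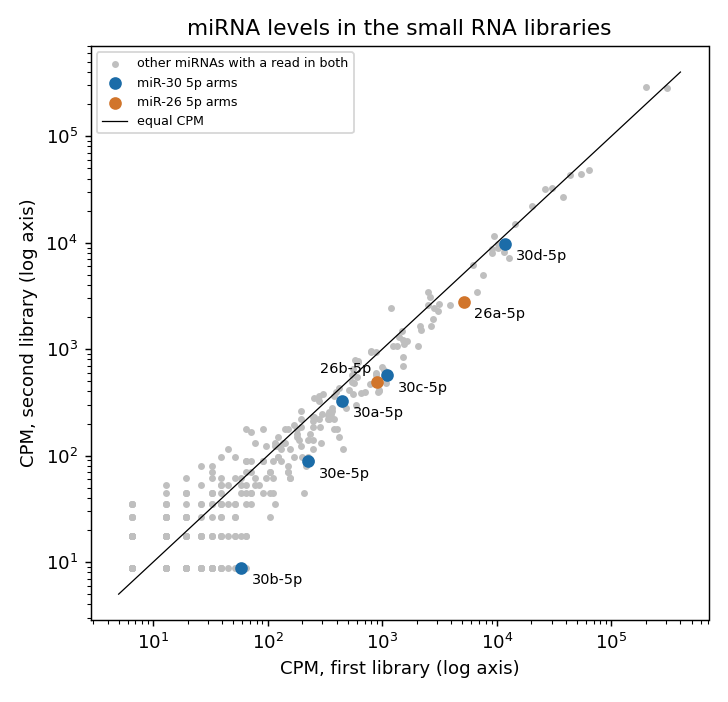
CPM in the second against the first small RNA library (both log axes) for the miRNAs with a read in both, with the miR-30 and miR-26 5p arms in colour and a line of equal CPM. All 7 members lie below the line with library totals, although the log2 ratio of miR-30d-5p is 0.00067 without the 5 abundant names, and at low counts the points fall on steps of single reads.

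The 3p arms of the same hairpins were used next, since they were not part of the choice of members. In most hairpins 1 arm is kept by Argonaute and the other is degraded. No read was counted on miR-26a-1-3p, miR-26a-2-3p or miR-26b-3p in either library, which allows up to 19.5 and 26.5 CPM for each. The 5p arm accordingly held 100% of the miR-26a reads in both libraries (95% exact interval from 99.5 and from 98.8% upward). For miR-30d 1 read was counted on the 3p arm in the first library, beside 1804 on the 5p arm, and none in the second, beside 1102. miR-30a-3p and miR-30c-1-3p each had 1 and 0 reads, and miR-30c-2-3p had 0 in both. These hairpins were thus counted almost wholly on the 5p arm.

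miR-30e differed from its relatives in this respect. miR-30e-3p had 22 and 15 reads, or 143 and 133 CPM, with a mean of 138 CPM ± 7.18 (SD, n = 2). The 5p arm held 61.4% of the miR-30e reads (95% exact interval 47.6 to 74.0%) and 40% (21.1 to 61.3%), so neither arm was in excess beyond counting error. The interval of miR-30e lay below those of miR-30a, miR-30c, miR-30d, miR-26a and miR-26b in each library. miR-30b had 1 read on its 3p arm in each library and too few reads for a comparison. Among 68 hairpin names with at least 50 reads over both arms and libraries, the larger arm held a median of 99.5%, and over 95% in 52 of them. For miR-30e it held 54.9%, and 2 of the 68, miR-30e included, were at or below that value. The 3p arms of miR-30e and miR-30a are shown because they differ at 1 base, A18G from miR-30e to miR-30a, outside the seed in capitals.
hsa-miR-30e-3p: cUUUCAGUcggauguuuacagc
hsa-miR-30a-3p: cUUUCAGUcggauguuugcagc
The part of reads assigned to the wrong one of these names was not tested.

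**Figure D4:**
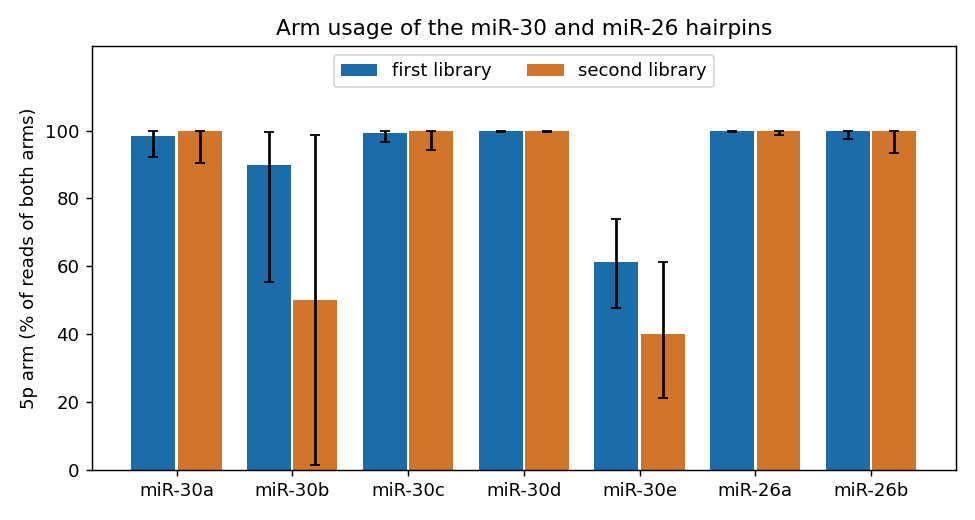
Reads of the 5p arm as a percentage of the reads of both arms for each hairpin family in the first and second small RNA library, with 95% exact intervals; the axis starts at 0. The bars of miR-30e stand at 61.4 and 40%, those of miR-30b rest on 10 and 2 reads, and the other 5 hairpin families are at 98.6% or above.

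Among the other families, the 9 let-7 5p arms, which repress growth genes such as LIN28B, took 8.16 and 7.98% of the counts, with a mean of 8.07% ± 0.130 (SD, n = 2). Per miR-30 read there were 6.03 (95% exact interval 5.76 to 6.32) and 7.44 (7.0 to 7.90) let-7 reads, above 1 by more than counting error in each library. The 7 3p arms of miR-221, miR-222, miR-23a, miR-23b, miR-27a, miR-27b and miR-24 took 1.75 and 1.01%, a mean of 1.38% ± 0.530 (SD, n = 2). Per miR-30 read these arms had 1.30 reads (1.22 to 1.37) and 0.937 (0.864 to 1.02). They were above miR-30 beyond counting error in the first library, and the interval of the second held 1. The 5 arms of the epithelial miR-200 family took 11 and 5 reads in all, fewer than miR-30e-5p alone. By distance of log2(CPM + 1) over both libraries, the names nearest to miR-30d-5p were let-7b-5p with 1575 and 1103 reads and miR-378a-3p with 1570 and 1005. Nearest to miR-26a-5p were miR-24-3p with 597 and 291 reads and miR-23a-3p with 1044 and 389.

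The total RNA of the EVs was examined for the genes that hold the hairpins. The 9 hairpin genes had 0 reads in each replicate. The library type and the size of a hairpin limit what such a count can show. NFYC, the host of MIR30E and MIR30C1, had 24 and 28 reads, 53.9 CPM ± 6.91 (SD, n = 2) of 489170 and 475942 gene counts. These gene counts were 2.50 and 2.16% of the 19563744 and 22042233 reads tallied in the counting. CTDSP2, the host of MIR26A2, had 11 and 4 reads, and CTDSP1, the host of MIR26B, had 55 reads in replicate 1 and 0 in replicate 2. LINC00472, around MIR30A and MIR30C2, and CTDSPL, around MIR26A1, had 0 reads in both, which allows up to 6.13 CPM in replicate 1 and 6.30 in replicate 2. The host of MIR30B and MIR30D was not analysed here. These counts give exonic reads of the host and carry no replicate link to the small RNA libraries. The strand setting of the counting is not given in the sources used here, so reads of a gene and of an antisense gene cannot be told apart.

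Genes known as targets of the families were then described in the total RNA and by the letters of their 3′ UTRs. The longest annotated 3′ UTR of each gene was searched on the mRNA strand only. The letters were TGTTTAC for miR-30 and TACTTGA for miR-26, the reverse complements of the seeds in DNA letters. The 2 motifs do not overlap in any of the sites shown. Of 19225 protein-coding genes with a 3′ UTR, 16.4% held the first and 12.3% the second. Of 9 known miR-30 targets 8 held the miR-30 letters, and of 9 known miR-26 targets all 9 held the miR-26 letters. Among 3′ UTRs within 20% of the length of each gene, the median share with the same letters was 18.2% for the miR-30 list. For the miR-26 list, whose 3′ UTRs include long ones, it was 29.3%. Such genes became known as targets partly through these sites, so the counts are a description and no test. RUNX2 (ENSG00000124813), SNAI1 (ENSG00000124216) and EZH2 (ENSG00000106462) are shown for their known roles, and SMAD1 (ENSG00000170365) because it is on both lists, with the matching letters in capitals.
RUNX2, position 229 of its 3′ UTR, chr6:45547534-45547540, plus strand: cttcagatTGTTTACtatttaag
RUNX2, position 3348, chr6:45550653-45550659, plus strand: tagatgtgTGTTTACttcatgtt
RUNX2, position 3359, chr6:45550664-45550670, plus strand: ttacttcaTGTTTACaaataact
SNAI1, position 706, chr20:49988762-49988768, plus strand: gaggaagaTGTTTACatttttaa
EZH2, position 250, chr7:148807390-148807396, minus strand: ataaagaaTACTTGAacttgtc
SMAD1, position 46, chr4:145557980-145557986, plus strand: cttgcatgTACTTGAaggatgga
SMAD1, position 103, chr4:145558037-145558043, plus strand: cttgataaTACTTGAcctctgtg

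RUNX2 has a 3′ UTR of 3777 bases with 3 miR-30 matches, and 30.6% of the 2057 3′ UTRs within 20% of that length held at least 1. The 3′ UTR of EZH2 is 263 bases long and held 1 miR-26 match, against 1.18% of 1185 of similar length. SMAD1 held 2 miR-26 matches in 1242 bases, against 7.53% of 2336, and no miR-30 match of these letters. Among the 6 genes that the study followed in osteoblasts, RUNX2 and EFNA3, an ephrin ligand, held a miR-30 match, while CSF1, VEGFA, CCL2 and FGF2 held none for either family. EFNA3 (ENSG00000143590) held its match at position 467 of 995 bases, against 10.3% of 2191 of similar length. In the EV total RNA VEGFA had 4 and 2 reads, CSF1 0 and 12 and FGF2 0 and 6, while RUNX2, CCL2 and EFNA3 had 0. The paper states that its sequencing data placed the genes it followed in PCa EVs, and it also examined them by qPCR of EV RNA. With so few of the reads counted on genes, 0 reads do not show absence from the vesicles.

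Reads of the targets in the EV total RNA were counted next. Of the 9 miR-30 targets 3 had a read in both replicates and 5 in either, and of the 9 miR-26 targets 2 had a read in both and 6 in either. Among all 19629 protein-coding genes the shares were 21.9% and 42.3%. GSK3B, a kinase of the Wnt pathway, had the most reads of these lists, 22 and 36, or 60.3 CPM ± 21.7 (SD, n = 2). Its 3′ UTR of 5467 bases held 3 miR-26 matches, and 34.6% of the 1227 of similar length held at least 1. The autophagy gene ATG5 had 4 and 14 reads, the cyclin gene CCNE2 3 and 7, and SMAD1 4 and 1. EZH2 had 0 and 18 reads, and the autophagy gene BECN1 8 and 0. Fewer reads were on CDK6 with 0 and 3, CCNE1 with 0 and 2 and CCND2 with 0 and 1, genes that drive the cell cycle. SNAI1, RUNX2, ITGB3, NT5E, LIN28B and RB1 had 0 reads in both replicates. With so few of the reads counted on genes, a count of 0 does not show that a transcript was absent. With replicates as far apart as 0 and 18 reads, the levels of most targets were not resolved.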

How the data were processed

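Small RNA (TruSeq) and stranded total RNA libraries of PC3 EVs were sequenced on an Illumina NextSeq instrument. Per the methods, Cutadapt was used for trimming and SHRiMP for mapping of small RNA, and the authors deposited the unnormalised counts of each mature miRNA. For total RNA the deposited files are unnormalised counts per Ensembl gene (HTSeq and GRCh38 are named in the submitters' processing notes). Versions, mismatches, multiple mapping and the strand setting are not given in the sources used here. Groups and replicate numbers came from the sample titles. The miRNA members and all gene lists were chosen with earlier results of these data known. Some genes of these lists are counted in the list totals and are not reported here by name.

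Counts were scaled to CPM of the library total. Shares carry 95% Wilson intervals, and arm shares and ratios exact (Clopper-Pearson) intervals. The study has 1 condition per assay, so no test between conditions applied. The libraries were compared by an exact two-sided binomial test for each miRNA with at least 10 reads summed over both. Benjamini-Hochberg adjustment was over all 208. The test was also run on simulated data, which held counting error only. Those data therefore cannot show how often it errs under the wider spread between replicates. Alternatives were TMM scaling and an exact test with common dispersion (edgeR 4.0.16), DESeq2 1.42.0 size factors, no filter, other count minimums, a total without 5 abundant names and leaving out each library. Named miRNAs were the members, their 3p arms, others with the same seed, the 2 nearest names to the highest member of each family and fixed lists. Annotation and transcripts were GENCODE release 44, whose 7 hairpin positions shared with RefSeq were equal. Values were computed in Python 3.11.15 with scipy 1.17.1 and in R 4.3.3.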

Additional observations from a re-analysis of the deposited data

How the results depend on the processing

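No paired analysis was possible because the study has 1 condition per assay and its miRNA count columns have no replicate number. The total decided the shares. Without the 5 abundant names (miR-1246, miR-3135b, miR-3182, miR-4448 and miR-7641), the mean share was 3.56% for the miR-30 and 1.34% for the miR-26 5p arms, and the CPM of all 7 members rose, since the total was smaller. With TMM scaling, with DESeq2 size factors and without these 5 names, 3 members differed between the libraries in each case, in place of 5. Of all miRNAs tested, 20.7, 22.1 and 18.7% differed in these settings, in place of 27.4%. The log2 ratio of miR-30d-5p turned to 0.00067 (adjusted exact binomial p = 1.0) without the 5 names. With edgeR's exact test and a common dispersion, 0 miRNAs and 0 members differed (4 and 0 at an unadjusted exact p under 0.05). With no filter on low counts 4 members did, beside 5.10% of the 765 names tested, and miR-30e-5p did not (adjusted exact binomial p = 0.0971). Left with a single library, the share was from 1.07 to 1.35% for miR-30 and from 0.328 to 0.604% for miR-26, all 7 members were detected in each, and from 4 to 5 neighbouring pairs had an interval above 1. Of 7 members, 6 had at least 3 and at least 10 reads in both libraries. miR-30b-5p, the exception, was at the limit of the depth, and levels of single host and target genes in the total RNA rest on few reads.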
